A study of Mus musculus with 4 samples.

Results

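Long noncoding RNA genes that were well measured in libraries labelled as circulating CD8+ lymphocytes of mouse tumour models are described here. A gene was included when the deposited tables gave it the biotype lincRNA, lncRNA, antisense, processed_transcript or bidirectional_promoter_lncRNA and when at least 1 of 4 libraries held at least 10 CPM (reads per 1000000 of its library total). That rule took 220 of 9077 long noncoding RNA genes, out of 53801 genes in all. They were 87 lincRNAs, 61 antisense genes, 60 processed transcripts and 12 bidirectional promoter RNAs, and none carried the label lncRNA. Members were thus chosen by their level, and a gene that reached 10 CPM in a single library had to be lower in the others, which was the case for 77 of the 220, while 54 reached it in all 4. Closest to the limit from within stood A430035B10Rik, E130317F20Rik and Gm11613 with highest levels of 10.01, 10.1 and 10.2 CPM. Closest from without stood BC037032, 4933407K13Rik and Sp3os with 9.93, 9.92 and 9.92 CPM.

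RNA was sequenced from primary mouse cells of genotype WT in a B16 model and a CT-26 model, B16 being a melanoma line and CT-26 a colon carcinoma line. In each model there was 1 library of lymphocytes that bound tumour-reactive MHC multimers, named CTRL for circulating tumour-reactive lymphocytes, and 1 library of the residual cells, each made from purified peripheral blood mononuclear cells. All 4 samples carry the cell type label CD8+ lymphocytes and the treatment label Multimer-binding, the residual ones included. The mouse strain, age, tumour stage, the number of animals and any pooling of blood were not found in the sources used here. The comparison asks how the cells that bound multimers differ from those left behind. With 1 library per group no difference has a replicate check within a model, and between the models strain and tumour cannot be told apart.

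Most RNA of this kind is transcribed, spliced and polyadenylated like messenger RNA but is not known to be translated. Some species act in the nucleus, as Malat1 does in speckles, Neat1 in paraspeckles and Xist on the inactive X chromosome. Others are known mainly as the precursors of small RNAs that are cut out of their introns or exons, and many lie antisense to or just upstream of a coding gene and are transcribed together with it. Their levels differ sharply between blood lineages, so they also mark which cells a sample holds.

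The libraries held 39068457 and 37166063 reads in B16 (residual, then CTRL, the order of every pair of values below) and 50823018 and 74879891 in CT-26. The residual libraries went against their label: the summed level of Cd8a and Cd8b1, the chains of the CD8 coreceptor, was 3.23 and 1331 CPM in B16 and 33.5 and 2312 CPM in CT-26. Haemoglobin genes took 42.0% and 1.28% of B16 reads and 10.8% and 0.629% of CT-26 reads. All 10 neutrophil markers passed the size limit defined below as lower in CTRL in both models. Their summed level was 10211 and 410 CPM in B16 and 11083 and 136 CPM in CT-26, and Ngp, Ltf and Camp had 0 reads in the B16 CTRL library. Of 10 monocyte and macrophage markers, 6 were lower in CTRL in B16 and 9 in CT-26, with summed levels of 5371 and 3644 CPM and of 10337 and 549 CPM. B-lymphocyte markers differed between the models: 8 of 10 were higher in CTRL in B16 and all 10 were lower in CT-26, with summed levels of 906 and 7293 CPM and of 950 and 273 CPM. Of 10 T-cell markers, 9 were higher in CTRL in each model. Their summed level was 695 and 3843 CPM in B16 and 2215 and 7151 CPM in CT-26, so the residual libraries held T-cell RNA too. The B16 residual library also had 16985 genes with only 1 to 9 reads, against 5880 to 7188 in the others. Fewer cells of a type and less RNA per cell cannot be told apart in such bulk samples. How far this mixture sets the values of the noncoding RNAs was not tested.

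The members that host microRNAs are shown first by the sequences they carry, since a host level is the only view these libraries give of such a locus. Of the members, 8 hold hairpins whose 19 mature microRNAs are in RefSeq (GRCm38.p6), with 18 different seeds. The host was measured here, not the mature microRNA. Capitals mark the seed, bases 2 to 8. Mir22hg yields miR-22, F630028O10Rik holds miR-223, which is known from granulocytes and monocytes, Dleu2 holds miR-15a and miR-16-1, and Mir142hg holds miR-142, a microRNA of all blood lineages. The mature forms of miR-15a and miR-16 were the only ones among the 19 that share a seed.
mmu-miR-22-3p: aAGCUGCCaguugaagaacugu
mmu-miR-223-3p: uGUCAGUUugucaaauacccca
mmu-miR-15a-5p: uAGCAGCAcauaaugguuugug
mmu-miR-16-5p: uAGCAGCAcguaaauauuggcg
mmu-miR-142a-5p: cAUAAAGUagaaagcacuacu
mmu-miR-142a-3p: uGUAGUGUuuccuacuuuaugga

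The promoters of Mir22hg and F630028O10Rik, hosts called lower in CTRL in both models, were searched on both strands for short motifs of regulators of blood lineages, and capitals mark the matches. For Runx factors the letters were TGTGGT. For PU.1 they were GAGGAAG. For GATA factors they were AGATAA. The TATA box was searched as TATAAA. Over 32851 RefSeq promoters of the same length the letters occur in 16.8%, 13.6%, 11.2% and 13.6%. The window of Mir22hg (chr11:75461289-75461588, plus strand, GRCm38) held 1 match to the Runx letters. That of F630028O10Rik (chrX:96239676-96239975, plus strand) held 1 match to the PU.1 letters and 1 to the GATA letters, both on the minus strand and overlapping each other. A match is a description of the letters and shows no binding.
Mir22hg promoter: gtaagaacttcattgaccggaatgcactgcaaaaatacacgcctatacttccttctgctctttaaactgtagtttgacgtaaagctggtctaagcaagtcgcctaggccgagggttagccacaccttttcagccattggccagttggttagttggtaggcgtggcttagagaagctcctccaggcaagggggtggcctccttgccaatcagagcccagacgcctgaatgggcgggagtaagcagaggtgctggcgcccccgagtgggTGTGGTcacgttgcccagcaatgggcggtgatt
F630028O10Rik promoter: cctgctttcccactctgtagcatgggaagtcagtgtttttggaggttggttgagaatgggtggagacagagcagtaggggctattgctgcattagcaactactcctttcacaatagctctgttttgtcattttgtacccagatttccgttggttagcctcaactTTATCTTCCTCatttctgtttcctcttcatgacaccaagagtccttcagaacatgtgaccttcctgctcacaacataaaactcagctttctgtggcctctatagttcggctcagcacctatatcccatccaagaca

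The window before Cd8a is shown because the member with the largest rise that was shared by both models ends inside it. Gm44174 (chr6:71353035-71373284, plus strand) is an antisense-class gene that runs on the same strand as Cd8a and stops 143 bases before it. Capitals mark the 108 bases of the Cd8a window (chr6:71373177-71373476, plus strand) that lie within Gm44174, and the window held no match to any of the motifs above.
Cd8a promoter: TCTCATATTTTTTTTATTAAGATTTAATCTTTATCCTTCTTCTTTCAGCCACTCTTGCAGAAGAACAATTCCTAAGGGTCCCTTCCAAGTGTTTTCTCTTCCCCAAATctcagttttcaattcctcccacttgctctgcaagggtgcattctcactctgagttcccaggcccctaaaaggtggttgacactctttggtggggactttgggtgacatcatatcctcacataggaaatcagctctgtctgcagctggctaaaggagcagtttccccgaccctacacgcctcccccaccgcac

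Members took 0.934% (Wilson 95% interval 0.931 to 0.937) and 0.941% (0.937 to 0.944) of all reads in B16, and 1.12% (1.12 to 1.13) and 0.988% (0.986 to 0.990) in CT-26. Malat1 alone made up 40.0% and 29.7% of these reads in B16 and 36.9% and 26.4% in CT-26. Without haemoglobin and mitochondrial genes in the total, the share was 1.63% and 0.954% in B16 and 1.26% and 0.996% in CT-26. Set against the total without those genes, the share was thus larger in the residual library of each model. Such intervals, here and below, cover counting error alone, with each read taken as a separate draw from 1 library. PCR copies cannot be told from separate molecules where no identifiers were used, so the intervals may be too narrow even for that error.

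The difference between populations is given throughout as the log2 ratio of normalized read counts, CTRL over residual, with 1 added to both, followed in brackets by an exact 95% counting interval. A member was called in a model when that ratio was 1 or more in size and 1 of the 2 libraries held 10 CPM or more, which takes 391 and 372 reads in B16 and 509 and 749 reads in CT-26. In B16, 169 members reached the level and 41 of them (24.3%) were higher in CTRL, where 26.8% of all 9289 genes at the level were. Another 30 (17.8%) were lower, against 11.7% of all genes. In CT-26, 180 members reached the level, of which 33 (18.3%) were higher, against 14.5% of all 9514 genes at the level, and 51 (28.3%) were lower, against 16.3%. The median log2 ratio of members at the level was 0.25 in B16 and 0.13 in CT-26, and that of all genes at the level was 0.47 and 0.23. Scaling to library totals moved the members' ratios up by a median of 0.84 in B16 (0.39 to 0.84) and of 0.19 in CT-26 (0.054 to 0.19), so small differences below are relative to the scaling of the deposited values. That scaling made 82.2% of B16 calls rises, against 57.7% as deposited, and 49.4% of CT-26 calls, against 39.3%. With factors from a trimmed mean of M values (TMM) the B16 share was 46.2%. No called member changed sign under either, but none could, since every shift was smaller than the size limit of 1. Scaling to library totals ended 11 of the 30 falls in B16 and 6 of the 51 in CT-26, and added 47 and 11 rises.

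Both models called 12 members higher and 22 lower in CTRL, 1 member was called in opposite directions, and 100 were called in neither, members under the level included. Of the 129 members at the level in both models, the shared rises were 9.30% and the shared falls 17.1%, where 8.71% and 7.44% of all 8765 genes at the level in both were called so. Called in neither were 43.4% of these members, against 52.3% of these genes. Higher in B16 and lower in CT-26 were 0.775% of the members, against 1.27% of the genes. The reverse order was found in 0 members and 0.0799% of the genes. By biotype, lincRNAs had the lowest medians at the level, -0.01 in B16 and -0.23 in CT-26, and antisense genes had 0.56 and 0.27. Reads cannot be assigned to a strand with certainty, since the kit named in the labels does not mark strand and how the counting treated strand is not stated in those sources. That bears on the 79 members (36.2% of the 218 with a position) that share exon bases with a coding gene on the opposite strand, a share that was 23.9% over all 9039 long noncoding RNA genes placed. Another 7 share exon bases on the same strand. Of the members, 100 overlap no coding gene, and 53 have a coding gene starting within 1 kb in the opposite orientation. The median over members of the highest level was 20.4 CPM, against 62.0 CPM over the 10038 genes that reach 10 CPM in any library. RefSeq calls 11 members protein coding, among them Cct6a, Tmem134, Ifi30, Spata5l1 and 1810058I24Rik, and their values describe those genes.

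**Figure D1:**
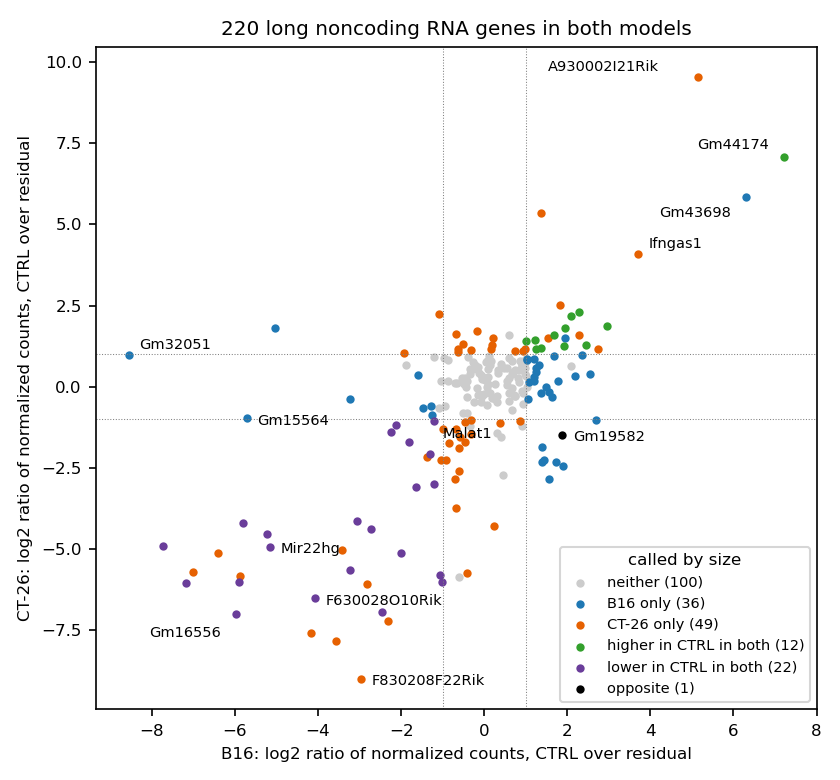
Each point is 1 of the 220 genes, placed by its log2 ratio of normalized counts (CTRL over residual) in B16 on the x axis and in CT-26 on the y axis; dotted lines stand at 1 and -1 and colours give the calls by size. Of the called genes, 12 lie high in both models, 22 low in both and 1, Gm19582, high in B16 and low in CT-26.

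Among members called higher in both models, Gm44174 had the largest rise by the smaller of its ratios. Gm44174, 141 exonic bases long, had 1 and 450 reads in B16 and 7 and 1767 reads in CT-26. Both CTRL libraries were thus high and both residual libraries nearly empty. The log2 ratio was 7.23 (5.56 to 13.35) in B16 and 7.08 (6.18 to 8.54) in CT-26. Cd8a itself, which begins just downstream, had 1.66 and 424 CPM in B16 and 8.78 and 734 CPM in CT-26, with log2 ratios of 7.13 and 6.19. Gm44175 (chr6:71354351-71360829, minus strand) lies within Gm44174 on the other strand and had 0.538 and 2.56 CPM in B16 and 0.315 and 15.3 CPM in CT-26. It was called in CT-26, at 5.35 (4.71 to 6.22), and stayed under the level in B16. Because Gm44174 ends so close to Cd8a, reads of the coding transcript that extend upstream and reads of the noncoding gene cannot be told apart from counts alone.

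A930002I21Rik (chr3:107090880-107098401, plus strand) stands 2745 bases from Kcna2 and 52810 bases from Kcna3, which encode voltage-gated potassium channels, Kcna3 being the main one of T lymphocytes. The member had 3 and 225 reads in B16 and 0 and 962 reads in CT-26. With a floor of 3 reads in the CT-26 residual library, it was at least 190.3-fold higher in CT-26 CTRL. In B16 its ratio was 5.14 (3.89 to 7.75), under the level for a call. Kcna2 showed 5.80 and 5.46 and Kcna3 2.03 and 1.91 on the log2 scale. AI504432, another member 1434 bases from Kcna3, was called in neither model, with -0.21 and 0.68.

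Ifngas1 (chr10:118502035-118556525, minus strand), the antisense RNA next to Ifng that is known in mouse T lymphocytes to promote interferon gamma expression, had 0.154 and 4.01 CPM in B16 and 1.06 and 20.8 CPM in CT-26. Its CTRL libraries were the higher in both models, with log2 ratios of 3.70 (2.71 to 5.33) in B16, under the level, and 4.08 (3.70 to 4.51) in CT-26, where it was called. Ifng, 56143 bases away, had 3.07 and 5.6 CPM in B16 and 15.6 and 11 CPM in CT-26, and its ratios of 0.02 and -0.69 stayed under the size limit. Gm43698 (chr5:67360387-67366599, plus strand) had 6 and 912 reads in B16 and 5 and 562 reads in CT-26 and ratios of 6.31 (5.35 to 7.93) and 5.86 (4.83 to 7.69), the second under the level. Its nearest coding gene, the zinc transporter Slc30a9, gave -0.17 and 0.63.

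Several shared rises lay opposite coding genes that were higher as well. Gm26732 (chr16:44329997-44333050, plus strand) shares 461 exon bases with Sidt1, a transmembrane protein gene, and had 2.84 and 39.9 CPM in B16 and 25.1 and 104 CPM in CT-26. Its log2 ratios of 2.96 (2.69 to 3.26) and 1.86 (1.77 to 1.94) stood beside 1.85 and 3.38 for Sidt1. Gm34006 (chr10:42861382-42864699, minus strand) overlaps Scml4, a Polycomb-group gene, without sharing exon bases. It had 4.91 and 28.4 CPM in B16 and 11.2 and 38.4 CPM in CT-26 and ratios of 1.68 (1.46 to 1.92) and 1.58 (1.45 to 1.72), beside 1.90 and 2.12 for Scml4. 9330175E14Rik, which shares 78 bases with Nlrc5, the activator of MHC class I genes, reached 1.01 and 1.40 beside 1.41 and 2.36; with TMM factors its B16 value was 0.77, which ends that call.

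Gm45552 had 15.1 and 133 CPM in B16 and 49.8 and 278 CPM in CT-26. Both CTRL libraries were the higher of their model, and its log2 ratios were 2.29 (2.17 to 2.42) and 2.29 (2.23 to 2.35). 1810034E14Rik (chr13:64248700-64271852, plus strand), opposite the phosphatase gene Cdc14b, had 2.99 and 23 CPM in B16 and 3.74 and 19.3 CPM in CT-26 and ratios of 2.09 (1.82 to 2.39) and 2.17 (1.95 to 2.40); Cdc14b gave 0.35 in B16 and 1.89 in CT-26. BC043934 (chr9:96435783-96438138, minus strand), which overlaps no coding gene, had 1.69 and 11.7 CPM in B16 and 9.7 and 39.2 CPM in CT-26, with ratios of 1.94 (1.57 to 2.35) and 1.82 (1.68 to 1.96). Spata5l1, which RefSeq calls protein coding, gave 2.45 and 1.29.

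**Figure D2:**
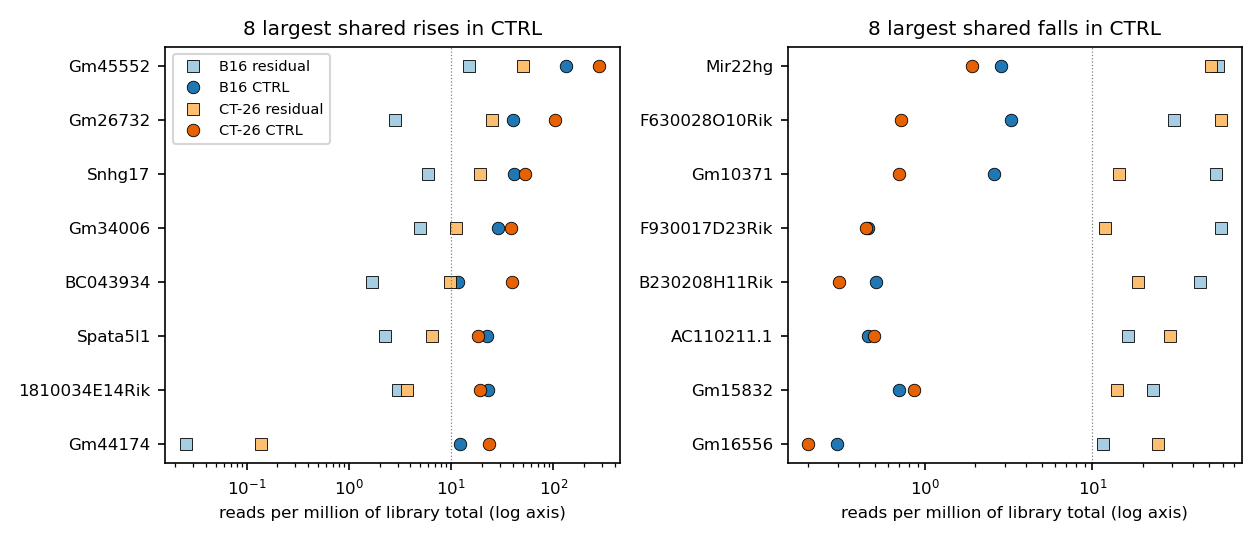
Levels in CPM (log axis) of the 8 members with the largest smaller rise and the 8 with the largest smaller fall among those called in both models; squares are residual and circles CTRL libraries, blue for B16 and orange for CT-26, with 1 library per point and a dotted line at 10 CPM. For every gene on the left both circles lie to the right of the squares of the same model, and on the right side the order is turned round.

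Members lower in CTRL in both models included microRNA hosts. Mir22hg (chr11:75461539-75466676, plus strand, ENSMUSG00000085148), whose sequences are printed above, had 56.5 and 2.83 CPM in B16 and 51.2 and 1.91 CPM in CT-26. Both residual libraries were high and both CTRL libraries low, and the log2 ratio was -5.15 (-5.46 to -4.88) in B16 and -4.93 (-5.19 to -4.69) in CT-26. Tlcd2 lies across it on the same strand and shares 206 exon bases with it. F630028O10Rik (chrX:96239926-96243636, plus strand, ENSMUSG00000078122), the host of miR-223, had 30.6 and 3.26 CPM in B16 and 59 and 0.721 CPM in CT-26. Its ratios were -4.06 (-4.36 to -3.80) and -6.52 (-6.97 to -6.16). The neutrophil and monocyte marker sums given above were lower in CTRL as well, and their part in these falls was not tested.

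The other hosts varied. Dleu2 had 28.4 and 27.1 CPM in B16 and 47.9 and 11.5 CPM in CT-26, and its ratio of -2.25 (-2.36 to -2.14) was called in CT-26 while -0.91 in B16 was not. With TMM factors its B16 value was -1.16, which makes a call lower there too. Mir142hg had 38.5 and 51.9 CPM in B16 and 56 and 36.2 CPM in CT-26 and was called in neither model, at -0.41 and -0.82. Ftx, an RNA near Xist that holds miR-374b and miR-421, was called higher in B16, at 1.67 (1.43 to 1.92), and gave 0.94 in CT-26. Scaled to library totals its CT-26 value was 1.13, which makes a call higher there too. Snhg20 gave 0.09 and 0.56, whereas Gm15987 and AC163018.1 were lower in CT-26 at -4.28 and -6.01; in B16 Gm15987 gave 0.24 and AC163018.1 was called at -1.02, a call that ends at -0.18 when scaled to library totals.

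Several members near genes of inflammation or of myeloid cells, chosen after their values were seen, were called lower in CTRL in CT-26, and some of these in B16 as well. Gm14005 (chr2:128178319-128502765, minus strand), known in mouse as Morrbid, a regulator of the pro-death gene Bcl2l11 in short-lived myeloid cells, had 21.8 and 4.68 CPM in B16 and 34.5 and 2.22 CPM in CT-26 and ratios of -3.05 (-3.31 to -2.83) and -4.14 (-4.39 to -3.92). Bcl2l11 gave -1.18 and -0.29. Il1bos (chr2:129369897-129375748, plus strand) is antisense to Il1b, the interleukin 1 beta gene, and had 6.4 and 2.26 CPM in B16 and 12.8 and 0.0801 CPM in CT-26. The CT-26 ratio of -7.23 (-8.96 to -6.38) was called, that of -2.33 in B16 lay under the level, and Il1b gave -3.79 and -6.16. Gm16894 lies opposite Il1r2, a decoy receptor for interleukin 1, and gave -2.82, under the level, and -6.06, beside -6.74 and -7.38 for Il1r2. Gm13822, opposite the interferon-induced Oasl1, had 163 and 2 reads in B16 and 1109 and 52 reads in CT-26 and was called in CT-26 at -5.13 (-5.60 to -4.77), with -4.57 for Oasl1. CT009530.1 had 173 and 1 reads in B16 and 659 and 20 reads in CT-26 and was called in CT-26 at -5.71 (-6.52 to -5.16). Acod1, the gene for which it was picked, lies 212219 bases away and is not close. 1700071M16Rik, opposite the phospholipase gene Pla2g7, was called in both models at -3.24 and -5.64, as was Pla2g7, at -2.13 and -6.05. BE692007, opposite the monocyte gene Ms4a6c, was called in neither, at 0.84 and 0.51.

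The steepest shared falls by the smaller of both ratios were in genes with no role that could be stated here. B230208H11Rik (chr10:12916648-12923090, minus strand) had 44.1 and 0.511 CPM in B16 and 18.8 and 0.307 CPM in CT-26 and ratios of -7.18 (-8.01 to -6.62) and -6.05 (-6.79 to -5.54). Gm16556 had 11.5 and 0.296 CPM in B16 and 24.6 and 0.20 CPM in CT-26 and ratios of -5.97 (-7.14 to -5.27) and -7.01 (-7.97 to -6.40). AC110211.1 (chr15:76266461-76269839, minus strand) had 16.3 and 0.457 CPM in B16 and 29 and 0.494 CPM in CT-26 and ratios of -5.90 (-6.79 to -5.31) and -6.02 (-6.58 to -5.60). Its opposite-strand partner Spatc1 held 37 and 0 reads in B16 and 92 and 1 reads in CT-26.

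F930017D23Rik (chr10:43593397-43709668, plus strand), 9132 bases from Cd24a, had 58.4 and 0.457 CPM in B16 and 11.9 and 0.441 CPM in CT-26; its ratios were -7.73 (-8.62 to -7.16) and -4.90 (-5.50 to -4.45). Cd24a encodes a surface glycoprotein of immature blood cells, red cell precursors among them, and gave -2.28 and -3.85. Gm10371 (chr14:47097679-47116161, minus strand) lies opposite Samd4 and had 54.8 and 2.58 CPM in B16 and 14.5 and 0.694 CPM in CT-26, with ratios of -5.23 (-5.56 to -4.95) and -4.55 (-5.01 to -4.17). Both of these were higher in the B16 than in the CT-26 residual library by CPM, as was the haemoglobin share of reads, 42.0% against 10.8%; its part in these values was not tested. Gm15832 shares 707 exon bases on the same strand with Rnf149, a ubiquitin ligase gene, and gave -5.81 and -4.21 beside -2.09 and -2.88.

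In CT-26 the largest falls were those of F830208F22Rik, Gm46224 and Gm39459, which the B16 libraries held at under 10 CPM. F830208F22Rik, on chromosome 18 opposite Pstpip2, an adaptor gene of myeloid cells, had 210 and 45 reads in B16 and 698 and 1 reads in CT-26 and a CT-26 ratio of -9.00 (-15.51 to -7.72), beside -8.73 for Pstpip2. Gm46224 had 278 and 39 reads in B16 and 709 and 4 reads in CT-26 and a CT-26 ratio of -7.82 (-10.10 to -6.86). Gm39459 had 13 and 0 reads in B16 and 720 and 5 reads in CT-26, with a CT-26 ratio of -7.59 (-9.55 to -6.69). 1600010M07Rik, opposite the importin gene Ipo7, was called in both models, at -2.45 (-2.70 to -2.22) and -6.95 (-8.00 to -6.31).

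Members next to coding genes were compared with those genes as a description, 106 of them overlapping a coding gene on the opposite strand. Of 21 such members called higher in B16, the coding gene was called higher for 8, lower for 0 and not called for 13. Of 11 called lower, it was called lower for 1 and not called for 10. Of these coding genes, 19 of 21 and 6 of 11 reached the level, where 26.8% of all genes at the level were called higher and 11.7% lower. In CT-26 the coding gene followed for 7 of 15 members called higher, and for 9 of 23 called lower with 1 in the opposite direction. There 13 of 15 and 16 of 23 coding genes reached the level, beside 14.5% of all genes called higher and 16.3% lower. The medians of the coding genes' log2 ratios were 0.66 and -2.13 in B16, and 0.85 and -1.42 in CT-26, for members called higher and lower. These medians include coding genes under the level. The B16 value of -2.13 is that of Pla2g7, which was itself called lower. Lower values came from genes with few reads, such as Samd4 with 47 and 0 reads and Spatc1 with 37 and 0. That median thus does not show a fall shared by the coding genes at the level. The part of reads shared between strands was not tested.

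**Figure D3:**
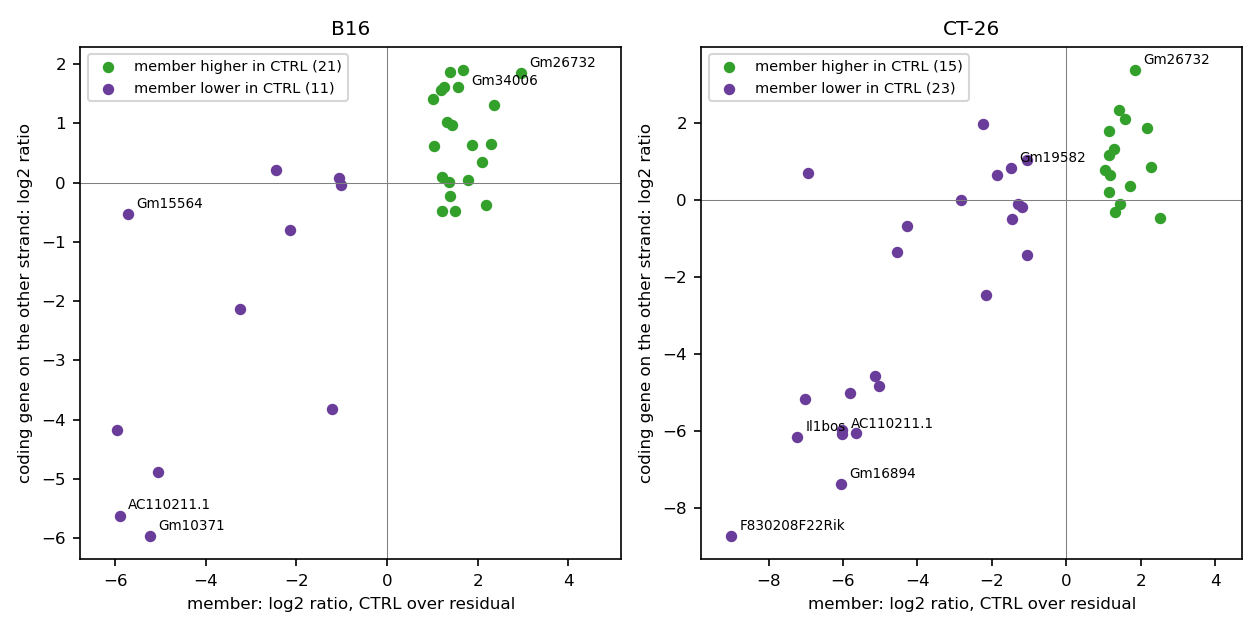
Each point is a member called by size that overlaps a coding gene on the opposite strand, with its log2 ratio (CTRL over residual) on the x axis and that of the coding gene on the y axis, for B16 on the left (21 higher, 11 lower) and CT-26 on the right (15 higher, 23 lower). Coding genes are plotted whatever their level; those of the lowest points, such as Samd4 and Spatc1, had few reads.

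Next come 4 members at B-lymphocyte loci, chosen after their values were seen. Of the 10 B-cell markers, 8 were called higher in CTRL in B16 and 10 lower in CT-26. Gm30211 (chr6:70719074-70740554, plus strand) spans Igkc, the kappa constant region, on the same strand and had 9.44 and 63.6 CPM in B16 and 8.93 and 1.88 CPM in CT-26. It was highest in the B16 CTRL library and lowest in the CT-26 CTRL library. Its log2 ratio was 1.91 (1.75 to 2.07) in B16, where it was called, and -2.43 (-2.72 to -2.16) in CT-26, where it lay just under the level. Igkc gave 2.21 and -3.98. 2010309G21Rik, which runs opposite the lambda light chain constant genes, had 4.04 and 19 CPM in B16 and 4.15 and 1.31 CPM in CT-26, with 1.38 and -1.85. Gm12158 lies within Ebf1, the B-lineage transcription factor, and had 3.94 and 19.2 CPM in B16 and 2.56 and 0.601 CPM in CT-26, with 1.44 and -2.25, and Ebf1 had 0.98 and -2.65. Gm31243, which overlaps the B-cell scaffold gene Bank1, had 3.02 and 16.1 CPM in B16 and 1.34 and 0.20 CPM in CT-26 and ratios of 1.56 and -2.83, beside 1.61 and -1.91. All 4 were called in B16 alone, since none reached 10 CPM in CT-26, and the part of B lymphocytes in the B16 CTRL library was not tested. Gm26857, which shares exon bases with the B and myeloid kinase gene Lyn, had another order, with -1.06 in B16 and -5.80 in CT-26.

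**Figure D4:**
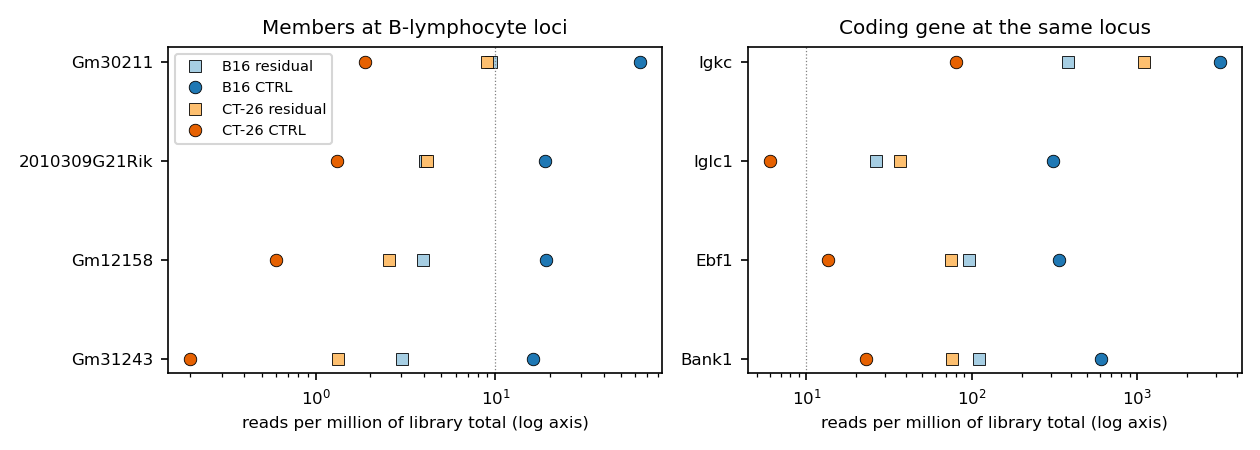
Levels in CPM (log axis) of 4 members (left) and of a coding gene at the same locus (right) in the 4 libraries; squares are residual and circles CTRL libraries, blue for B16 and orange for CT-26, with a dotted line at 10 CPM. In all 8 rows the B16 CTRL library is highest and the CT-26 CTRL library lowest.

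Gm19582 (chr1:87853347-87854299, minus strand) was the one member called in opposite directions. It shares 110 exon bases with Dgkd, a diacylglycerol kinase gene, and had 2.2 and 14.7 CPM in B16 and 13.6 and 5.54 CPM in CT-26. Its log2 ratio was 1.88 (1.56 to 2.24) in B16 and -1.48 (-1.66 to -1.31) in CT-26, and Dgkd gave 0.63 and 0.82, called in neither. Other members differed in size between the models. Gm32051 (chr5:105409367-105415670, plus strand), 105 bases from the anion channel gene Lrrc8b, had 7290 and 32 reads in B16 and 27 and 90 reads in CT-26, so that a single library, B16 residual, held almost all its reads. Its B16 ratio was -8.54 (-9.15 to -8.10), and Lrrc8b gave -0.58. Lockd, the RNA downstream of the cell cycle inhibitor gene Cdkn1b, had 18.1 and 3.42 CPM in B16 and 2.24 and 1.96 CPM in CT-26 and was called in B16 at -3.24 (-3.53 to -2.98), with -2.07 for Cdkn1b. Gm15411 was called in B16 at 2.55 (2.29 to 2.82) and gave 0.40 in CT-26, and Gm28370 gave 2.35 (1.93 to 2.84) and 0.98. Scaled to library totals, Gm28370 reached 1.18 in CT-26, which makes a call higher there too. F730311O21Rik was called in B16 at 2.68 (2.23 to 3.21). In CT-26 it went the other way, at -1.01, but lay under the level for a call. In CT-26, Ptprv, 106 bases from the phosphatase gene Ptpn7, was called at 2.25 (1.96 to 2.57), and AC147041.1 at 2.52 (2.22 to 2.86); in B16 they gave -1.09 and 1.83, both under the level.

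Some members were found almost wholly in 1 model. Gm19951 had 13.9 and 82 CPM in B16 and 0.118 and 0.0134 CPM in CT-26, and Gm43305 had 11.8 and 43 CPM in B16 and 0.0394 and 0.0935 CPM in CT-26. AC139671.1 had 517 and 575 reads in B16 and 44 and 0 reads in CT-26, and 4930481A15Rik had 222 and 714 reads in B16 and 1 and 0 reads in CT-26. All of these had their reads in both B16 libraries and 0 to 44 reads in a CT-26 library. Gm26740, at the locus of the H60b and Raet1e genes for ligands of an NK cell receptor, had 55.2 and 187 CPM in B16 and 5.88 and 10.7 CPM in CT-26. Levels across models are given in CPM because the tables were normalized separately.

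The characterised RNAs were grouped in 7 lists. Of the nuclear and architectural RNAs, 7 of 9 found were members, with 0 higher and 1 lower in each model and medians of -0.86 in B16 and 0.19 in CT-26. Malat1 had 3738 and 2795 CPM in B16 and 4149 and 2609 CPM in CT-26, and its ratio was -1.26 (-1.27 to -1.25) in B16, where it was called lower, and -0.86 in CT-26. Scaled to library totals the B16 value was -0.42, which ends the call. Neat1 had 322 and 318 CPM in B16 and 879 and 304 CPM in CT-26 and was called lower in CT-26, at -1.73 (-1.75 to -1.70), with -0.86 in B16. Per kilobase of exon, Malat1 stood at 400.2 CPM per kilobase in the B16 CTRL library and AW112010 at 307, the highest levels among members there. Tug1, Kcnq1ot1, 2900097C17Rik, Gm26917 and Firre were called in neither model, with ratios between -1.89 and 0.90. Scaled to library totals, Tug1 at 1.17 and Kcnq1ot1 at 1.38 in B16 and Gm26917 at 1.09 in CT-26 pass the size limit, and with TMM factors Neat1 at -1.11 and Gm26917 at -1.21 do in B16. At the X inactivation centre Xist had 71.4 and 121 CPM in B16 and 93.1 and 77 CPM in CT-26 and gave -0.08 and -0.47.

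Hosts of small nucleolar RNAs, which guide the modification of ribosomal RNA, were the largest list, with 12 of 22 found among members. Small nucleolar or Cajal body RNAs lay within 7.34% of members on the same strand, against 0.697% of all long noncoding RNA genes in the annotation, and microRNAs within 5.05% against 1.15%. In B16, 1 host was called higher and 0 lower, with a median of -0.14, and in CT-26 2 were higher and 1 lower, with a median of 0.25. Snhg17 had 5.99 and 40.9 CPM in B16 and 19.3 and 52.8 CPM in CT-26 and was called in both, at 1.93 (1.73 to 2.13) and 1.25 (1.15 to 1.36). Snhg15 was called higher in CT-26 alone, at 1.12 (1.02 to 1.22), and 2410006H16Rik lower in CT-26 alone, at -1.10 (-1.17 to -1.02), a call that ends at -0.90 when scaled to library totals. Gas5, which accumulates when growth stops, had 104 and 197 CPM in B16 and 118 and 165 CPM in CT-26 and gave 0.08 and 0.29. Snhg1, Snhg5, Snhg6, Snhg8, Snhg9, Zfas1 and Epb41l4aos were called in neither model. Their ratios lay between -0.51 and 0.54 in B16 and between -0.81 and 0.96 in CT-26. Scaled to library totals, Snhg8 reached 1.38 in B16 and Snhg6 1.15 in CT-26.

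In the list of microRNA hosts and related RNAs, 4 of 14 found were members, and 2 were lower in B16 and 3 in CT-26, with medians of -1.11 and -2.17. Besides Mir22hg and Dleu2, these calls came from Mirt1, which had 85 and 61.6 CPM in B16 and 111 and 30.0 CPM in CT-26 and ratios of -1.31 (-1.38 to -1.23) and -2.08 (-2.15 to -2.01). Scaled to library totals its B16 value was -0.46, which ends that call. Its annotation holds no microRNA. The list also leaves out the hosts F630028O10Rik, Ftx, Snhg20, Gm15987 and AC163018.1 described above. Its medians thus do not describe the microRNA hosts among members as a whole. Of the immune and inflammatory RNAs, 5 of 12 found were members, with 0 higher and 1 lower in B16 and 1 higher and 2 lower in CT-26, and medians of -0.28 and 0.28. AW112010, an interferon-inducible RNA of macrophages and T lymphocytes, had 105 and 247 CPM in B16 and 439 and 231 CPM in CT-26. It was called lower in CT-26, at -1.12 (-1.15 to -1.09), and gave 0.39 in B16. Scaled to library totals these were -0.93, which ends the call, and 1.23, which makes a call higher in CTRL in B16. Pvt1, the neighbour of Myc, and Lncpint, a target of p53, were called in neither, at -0.28 and 0.55 and at -0.53 and 0.28.

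Growth-related and p53-related RNAs had 6 members of 8 found, of which 1, Lockd, was lower in B16 and none was called in CT-26, with medians of -0.15 and 0.29. The X inactivation list had 2 members of 4 found, with 1 higher in B16 (Ftx), none called in CT-26, and medians of 0.79 and 0.24. The imprinted list had 2 members of 10 found, Kcnq1ot1 and Mirt1, and Mirt1 alone was called, lower in both with the B16 limit given above; Mirt1 is not itself known to be imprinted. Medians of that list's members were -0.38 and -0.95. These medians stand beside 0.47 and 0.23 over all genes at the level.

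**Figure D5:**
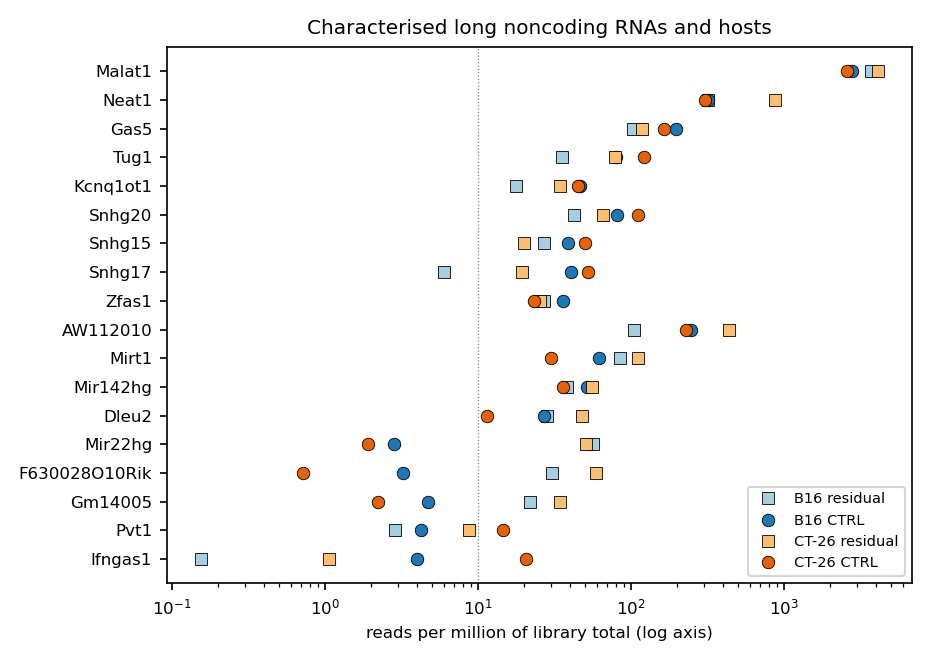
Levels in CPM (log axis) of 18 characterised members in the 4 libraries; squares are residual and circles CTRL libraries, blue for B16 and orange for CT-26, with a dotted line at 10 CPM. Levels are not divided by gene length. Mir22hg, F630028O10Rik and Gm14005 have both CTRL circles far left of the residual squares, and Ifngas1 has them far right.

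Some high values are uncertain. Gm15564 had 1130.0 and 38.6 CPM in B16 and 534 and 311 CPM in CT-26, with ratios of -5.71 (-5.79 to -5.64) and -0.97, and Gm26917 had 366 and 337 CPM in B16 and 593 and 1263 CPM in CT-26, with -0.96 and 0.90. Gm10076 and Gm26870 had 121 and 72.3 CPM in B16 and 64.7 and 94.2 CPM in CT-26 and 26.4 and 1.4 CPM in B16 and 0.0787 and 0.361 CPM in CT-26. These genes lie on repeated sequence or have near-identical copies, and reads may be split among copies or come from other transcripts. Among the genes RefSeq calls coding, Cct6a, a chaperonin subunit, was called higher in B16 at 1.32 and gave 0.67 in CT-26, 1810058I24Rik was called lower in both at -2.26 and -1.40, and Tmem134 was called in neither at -0.12 and -0.22. 1810026B05Rik, which shares 2628 exon bases with the chromatin remodeller gene Chd2, gave 0.70 and 0.45.

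A fit over both models, with model and population as terms and 1 residual degree of freedom, takes each model as a repeat of the contrast. edgeR's quasi-likelihood test with Benjamini-Hochberg adjustment called 0 of the 220 members and 0% of 18749 genes. At an unadjusted p under 0.05, 18 members (8.18%) were higher and 40 (18.2%) lower in CTRL, against 1175 (6.27%) and 1823 (9.72%) of all genes. Members had to reach 10 CPM in at least 1 library, which was not asked of these genes, so the shares lack a like base. How far that selection sets the excess was not tested. The smallest adjusted p among members by that test was 0.184, reached by Mir22hg, Gm44174, Gm43698, B230208H11Rik, Gm16556, AC110211.1 and Gm10371. Without a filter beyond 1 read, edgeR called 6 members higher, with 0.416% of 40101 genes called higher, and 24 lower, with 2.04%. DESeq2 called 10 members higher, with 1.73% of 18332 genes called higher, and 33 lower, with 8.38%. Every member reached 10 CPM in a library, which was not asked of the genes in these totals. Their shares are thus no like base for the member counts of either tool. By DESeq2 the adjusted p was 1.17e-17 for Mir22hg, 2.25e-13 for F630028O10Rik, 1.13e-13 for Gm44174, 2.3e-07 for A930002I21Rik and 1.73e-05 for Ifngas1, while edgeR's adjusted p for the last 2 was 0.252 and 0.204. Across the edgeR settings the adjusted p of Mir22hg ran from 2.02e-05 without the filter to 0.204 without the model term. Malat1 gave an adjusted p of 0.345 by edgeR and 0.171 by DESeq2. Nothing says that the libraries came from separate animals of 1 group. With the model term, these p-values set the contrast against its disagreement between the 2 models, with information on spread shared over genes. Only the setting without the model term also counts the difference in level between the models as spread.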

How the data were processed

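Libraries were made with a Takara SMART-Seq v4 kit, per the labels' protocols. Per the submitters' processing notes, HTSeq 0.11.2, STAR 2.7.3a and DESeq2 were used on build mm10, with no roles given. The authors deposited a table per model with raw read counts per gene, whole numbers, and with normalized read counts, a signal equal to the deposited count divided by a size factor of 0.766 and 1.31 in B16 and 0.770 and 1.30 in CT-26 (residual, CTRL). The log2 fold of the authors' deposited table is used as an alternative only, and its p-value, deposited without adjustment, is not used.

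CPM came from raw counts and library totals. Ratios used the deposited normalized counts with a pseudocount of 1, and calls a size of 1 and a level of 10 CPM. Exact intervals are conditional binomial at 95%. The fit used edgeR 4.0.16 (R 4.3.3, TMM factors, filterByExpr, Benjamini-Hochberg over all genes), and DESeq2 1.42.0 as an alternative. Tested on simulated counts with a dispersion of 0.05, the edgeR fit recovered 200 of 200 genes changed 4-fold and 200 of 200 changed 16-fold, whereas the common dispersion estimated from the data was 0.36. Python 3.11.15 was used with pandas 2.3.3, numpy 2.4.6, scipy 1.17.1 and matplotlib 3.10.9. Positions came from GENCODE M21 (GRCm38, the build of the files), which held 218 of the 220 identifiers, and sequences from RefSeq (GRCm38.p6). RefSeq matched 152 members by symbol, and a promoter was listed for 125.

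Members, lists and markers were chosen with earlier results of these data known. The rule named 66 members: those in the lists, the 10 with the highest mean CPM, the 8 largest rises and falls per model, the 8 largest shared in each direction, and those called in opposite directions. Other members and the neighbouring coding genes shown beyond the nearest or overlapping one were chosen after their values were seen, among them the members at B-lymphocyte and inflammatory loci. Alternatives were other scalings, pseudocounts, levels and size limits, the authors' fold, other fits and, added after the data were seen, leaving out members that share exon bases with a coding gene or that RefSeq calls coding. The values of some overlapping coding genes are not reported here.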

Additional observations from a re-analysis of the deposited data

Results flagged for a closer look

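Gm19582 was flagged because its populations differed in opposite directions in the models, higher in CTRL in B16 (1.88) and lower in CT-26 (-1.48). Such calls were not special to members. This order was called for 1 of 129 members at the level in both models (0.775%) and for 111 of 8765 genes (1.27%). For Gm19582 the CT-26 ratio minus the B16 ratio was -3.37 on the log2 scale. With 1 library per group this difference was not tested.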

How the results depend on the processing

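Scaled to library totals, B16 members called higher were 88 and lower 19, and the medians were 1.09 in B16 and 0.32 in CT-26; with TMM factors the B16 median was -0.0012. Taking members at 20 CPM gave 25 higher and 24 lower in B16, 18 higher and 31 lower in CT-26, and medians of 0.052 and -0.17. A size limit of 2 gave 10 higher and 18 lower in B16 and 8 higher and 35 lower in CT-26. Without members that share exon bases with a coding gene or that RefSeq calls coding, 26 were higher and 20 lower in B16 and 20 higher and 34 lower in CT-26, where the median was -0.045. Shares over all genes are not given for these settings, so the counts do not show whether members differ from other genes there. The causes were not tested beyond what the settings themselves change. Members' shares of reads were 1.63%, 0.954%, 1.26% and 0.996% without haemoglobin and mitochondrial genes in the total, in the order B16 residual, B16 CTRL, CT-26 residual, CT-26 CTRL, and 1.14%, 1.18%, 1.35% and 1.21% over all long noncoding RNA genes. Over both models, edgeR without a filter beyond 1 read called 6 members higher and 24 lower, and DESeq2 10 and 33. With relative log expression factors or without the model term, edgeR called 0 and 0. Of the 40101 genes without the filter, edgeR called 0.416% higher and 2.04% lower, but reaching 10 CPM was not asked of those genes. The ratios of the 66 named members, recomputed in both models under several alternatives, gave 792 values. Of these values, 566 stayed within the counting interval of the main ratio and 226 left it, a split that depends on which alternatives were pooled. Called ratios could not change sign under library-total or TMM scaling, where every shift was smaller than the size limit. The fit over both models pairs CTRL with residual within each model. No paired analysis by replicate number was possible because each group has 1 library, and no replicate could be left out. Depth limits the largest ratios, many of which rest on 0 to 7 reads in a residual or a CTRL library.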

Other observations

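Among members not described above, picked after their values were seen, several more lay at genes of T lymphocytes. Gm43352, which shares 1208 exon bases with Lef1, a transcription factor of naive T lymphocytes, had 3.97 and 8.13 CPM in B16 and 8.64 and 24 CPM in CT-26 and was called higher in CT-26 at 1.28 (1.13 to 1.44), with 0.19 in B16. Lef1 gave 1.51 and 1.34 on the same log2 scale. Gm9889, 78 bases from S1pr1, the receptor that lets lymphocytes leave lymph nodes, was called in CT-26 at 1.16 (0.98 to 1.34), beside 1.70 for S1pr1. A430093F15Rik, 1945 bases from Cd5 and 3298 bases from Cd6, both surface receptor genes of T lymphocytes, was called in neither model, at 0.16 and 0.79, whereas Cd6 gave 1.80 and 2.12. Gimap1os, opposite the lymphocyte GTPase gene Gimap1, gave -0.40 and 0.17, and Gimap1 gave 2.66 and 0.49.

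Gm26857 shares 248 exon bases with Lyn, a kinase gene of B and myeloid cells, and had 12 and 10.3 CPM in B16 and 15.8 and 0.307 CPM in CT-26. It was called lower in both models, at -1.06 (-1.26 to -0.87) and -5.80 (-6.55 to -5.29), the B16 call ending at -0.22 when scaled to library totals, and Lyn gave 0.08 and -5.02. BE692007, which shares 1088 exon bases with Ms4a6c, a gene of monocytes, had 27 and 86.9 CPM in B16 and 28.6 and 46.7 CPM in CT-26 and gave 0.84 and 0.51, while Ms4a6c gave -1.60 and -4.21. D730003I15Rik, 6415 bases from the stress-response gene Atf3, gave -0.31 and -1.01, beside -1.89 and -6.48. The differences between these members and their neighbours were not tested.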
